A study of Homo sapiens with 24 samples.

Results

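Neuropilins, plexins of class A and class 3 semaphorins are receptors and ligands of 1 guidance system, and 8 of their genes are described here in HCT116 cells and in a line derived from them by repeated exposure to oxaliplatin. The 8 genes were chosen by symbol, with earlier results of these data known: the co-receptors NRP1 and NRP2, the receptors PLXNA1, PLXNA2 and PLXNA3, and the ligands SEMA3A, SEMA3C and SEMA3F. They are 8 of the 33113 genes of the count table, and all 8 had at least 10 counts in every sample, as did 9641 genes in all. HCT116 is a human colorectal adenocarcinoma cell line of epithelial type, and HCT116 oxpl-R is its oxaliplatin-resistant derivative. It is not stated whether the resistant line is 1 clone. Both lines carry TetOn-E1A, a doxycycline-inducible E1A gene of adenovirus, in every group, controls included. Each line was left untreated (control), given doxycycline at 0.5 µg/mL (E1A), given oxaliplatin at 25 µM for 24 h, or given doxycycline 3 h before the same oxaliplatin treatment (E1A + oxaliplatin). No group had doxycycline without the transgene, so changes with E1A and changes with doxycycline itself cannot be told apart. Each of the 8 groups had 3 samples labelled as biological replicates, 24 in all. Nothing further is stated on separate cultures, so p-values measure the spread between these samples.

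Class 3 semaphorins are secreted proteins. Most of them bind a neuropilin on the cell surface, which has only a short cytoplasmic tail, and a plexin of class A in the same complex passes the signal on through its GTPase-activating domain, so that the actin cytoskeleton and cell adhesion change. The system was first known from axon guidance. In tumours and vessels, neuropilins also act as co-receptors of vascular endothelial growth factors, and SEMA3A and SEMA3F are known as inhibitors of angiogenesis. In epithelial cells the same genes take part in adhesion and migration.

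The estimated counts of a sample summed to between 24838095 and 37927720. The count of the transgene, listed as Ad5-E1A, followed the labels. Without doxycycline it was between 119 and 184 normalised counts in HCT116 samples and, without overlap, between 189 and 343 in HCT116 oxpl-R samples. The part of this difference in the results was not tested. The 12 samples without doxycycline thus held 119 to 343, and the 12 samples with it between 5826 and 24304. The lowest of the latter was HCT116 E1A + oxaliplatin replicate 1, since the other 2 samples of that group had 14447 and 15713. Epithelial markers marked all samples (KRT8 with at least 79684 counts), although the intestinal gene CEACAM5 was at 0 in 8 samples. The 4 endothelial markers, which matter because neuropilins are abundant in endothelium, summed to between 1.72 and 51.1 normalised counts per sample, and CDH5 had at most 7 counts. Among 5 fibroblast markers, which summed to between 415 and 1572, COL1A1 was present in every sample and COL1A2 reached 489 counts in 1, whereas LUM and DCN were at 0 in 18 and 17 samples. The 3 leukocyte markers summed to between 10.0 and 192, mostly CD68. In untreated cells, CD68 was lower in the resistant line (47.5 against 110 normalised counts), 2 of the 8 epithelial markers were higher and 2 lower, and none of the endothelial or fibroblast markers passed the edgeR test (0 also at an unadjusted p below 0.05). In other comparisons of the lines, 1 of 4 endothelial markers was higher with E1A (PECAM1, means of 9.85 and 0.682) and 1 of 5 fibroblast markers with both agents (COL1A2). Of the fibroblast markers, 1 also rose with E1A in HCT116 cells and COL1A2 fell with oxaliplatin in the resistant line, while 4 of the 8 epithelial markers rose with oxaliplatin in HCT116 cells. The part of these markers in the results was not tested. In several groups 1 library stood apart from the other 2, by a chi-square per gene of counts between libraries. The largest values were those of HCT116 oxaliplatin replicate 3 (206 and 226, against 24.0 between the others), HCT116 E1A + oxaliplatin replicate 1 (211 and 239, against 20.7) and HCT116 oxpl-R oxaliplatin replicate 1 (463 and 619, against 162). At lower values, HCT116 E1A replicate 3 (61.7 and 53.5, against 10.6) and HCT116 oxpl-R E1A + oxaliplatin replicate 3 (144 and 93.9, against 33.2) stood apart too. HCT116 control replicate 3 did so to a lesser degree (31.1 and 42.7, against 13.5). In bulk RNA, fewer cells with a transcript and less transcript per cell cannot be told apart.

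In untreated cells, all 8 genes differed between the lines. The 2 neuropilins and the 3 plexins stood higher in the resistant line, and the 3 semaphorins lower. In this comparison 13.8% of the 16715 genes tested were called higher and 13.9% lower at an adjusted p below 0.05. The genes were listed with such results known, so their calls size a difference against the spread of replicates and are not independent evidence. For each of the 8 genes the 3 samples of one line lay entirely above those of the other, as 20.4% of all genes tested did in favour of the resistant line and 20.3% in favour of HCT116. All 8 were called in each fit that left out 1 sample.

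NRP2 had the largest difference of the 8 genes. It encodes the co-receptor that prefers SEMA3C and SEMA3F as ligands and lies on the plus strand of chromosome 2, at chr2:205681990-205798133 (GRCh38). Its normalised count was 49.9, 51.1 and 52.2 in the lowest, median and highest HCT116 control sample and 1567, 1697 and 1907 in those of the HCT116 oxpl-R control. The means were 51.1 ± 1.13 and 1724 ± 172 (SD, n = 3), a 33.7-fold difference. Its log2 fold change was 5.08 ± 0.15 (SE), with an adjusted p of 4.23e-08. A second deposited table was read here as counts corrected for the length of the transcripts used, and is called the length-scaled table. In it the log2 fold change of NRP2 was smaller (4.16 to 4.23) and still called. The NRP2 values there were 81.6, 47.6 and 106 in replicates 1 to 3 of the HCT116 control and 1440, 1339 and 1440 in those of the HCT116 oxpl-R control. Only 53 of 11096 genes that averaged at least 10 counts had a larger log2 fold change. The median log2 fold change of 767 such genes on chromosome 2 was -0.28.

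No HCT116 sample reached the NRP2 level of the resistant line under any treatment. The normalised counts of HCT116 cells were 76.6, 91.3 and 93.3 under oxaliplatin, 170, 179 and 238 with E1A, and 125, 143 and 149 with both. In HCT116 oxpl-R cells they were 1408, 1585 and 1685 under oxaliplatin, 1200, 1462 and 1523 with E1A, and 977, 1418 and 1439 with both. From lowest to highest, the group means ran from HCT116 control over oxaliplatin (87.1), E1A + oxaliplatin (139) and E1A (196) to the 4 groups of the resistant line (1278 to 1724). The 4 HCT116 groups did not overlap with their neighbours in this order, while each of the 4 HCT116 oxpl-R groups overlapped with the next.

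NRP1, which prefers SEMA3A and is the co-receptor of the main endothelial growth factor, showed the same order of the lines at lower counts. It lies on the minus strand of chromosome 10, at chr10:33177492-33336262. HCT116 control samples held 18.7, 23.0 and 30.4 normalised counts and HCT116 oxpl-R control samples 215, 225 and 253. The means were 24.0 ± 5.91 and 231 ± 19.9 (SD, n = 3), 9.63-fold apart, and the log2 fold change was 3.27 ± 0.23 (adjusted p = 5.26e-06). From the length-scaled values, 90.4, 15.5 and 18.8 against 195, 250 and 178, it was 2.32 to 2.78 (adjusted p = 0.00269 to 0.0103). The median of 445 genes of chromosome 10 was -0.25. In treated HCT116 cells NRP1 was at 28.3, 54.1 and 68.4 under oxaliplatin, 55.1, 66.0 and 69.0 with E1A, and 46, 56.2 and 101 with both. The treated HCT116 oxpl-R cells held 287, 346 and 362, then 224, 305 and 330, and 255, 295 and 372, in the same order of treatments. No HCT116 sample reached the lowest HCT116 oxpl-R sample, and within each line the samples of every group overlapped with those of the next group in the order of means.

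Counted per kb of the annotated main transcript (MANE), neuropilin RNA summed to between 11 and 12.9 in the HCT116 control samples and to between 274 and 327 in those of the HCT116 oxpl-R control. NRP2 made up 64.7% ± 5.91 of it in the former and 86.3% ± 1.38 in the latter (SD, n = 3). The share of NRP2 ranged from 51.1% to 74.5% over the 12 HCT116 samples and from 76.5% to 87.8% over the 12 HCT116 oxpl-R samples, so that the lines did not overlap.

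Promoter sequences were at hand for 6 of the 8 genes, from RefSeq (GRCh38.p14). The 250 bases before the RefSeq start are shown for NRP2 and PLXNA2, the genes with the largest increases with E1A in HCT116 cells. NRP2 is at chr2:205682251-205682500 on the plus strand and PLXNA2 at chr1:208244385-208244634 on the minus strand. The RefSeq start of NRP2 lies downstream of the gene start given above, which is that of the longest extent in GENCODE, so its window falls within the gene as annotated there. Capitals mark GGGCGG or its reverse complement CCGCCC, the core of SP1 sites.
NRP2: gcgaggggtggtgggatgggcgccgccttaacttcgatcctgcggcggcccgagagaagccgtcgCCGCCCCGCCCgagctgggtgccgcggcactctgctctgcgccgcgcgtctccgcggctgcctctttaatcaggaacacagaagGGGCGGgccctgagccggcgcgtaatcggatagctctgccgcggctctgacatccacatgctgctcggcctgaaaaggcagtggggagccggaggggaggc
PLXNA2: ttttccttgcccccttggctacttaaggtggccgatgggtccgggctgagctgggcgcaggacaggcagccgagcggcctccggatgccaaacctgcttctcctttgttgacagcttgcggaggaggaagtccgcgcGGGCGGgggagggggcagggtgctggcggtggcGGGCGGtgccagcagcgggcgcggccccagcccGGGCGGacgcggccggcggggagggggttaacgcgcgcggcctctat
Each of these windows held 3 matches, with overlapping ones counted separately, and had a GC content of 70.0% and 72.4%. At least 1 match stood in 42.6% of the 35116 promoter windows of this length. Neither window held TTTNGCGC (E2F, 1.51% of all windows), TGANTCA (AP-1, 6.57%) or CACGTG (E-box, 6.34%) on either strand. The same 3 motifs were missing from the windows of PLXNA1, PLXNA3, SEMA3C and SEMA3F. NRP1 and SEMA3A were not matched.

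PLXNA1 was the most abundant of the class A plexins, which carry the signal of the complex into the cell. Per kb of MANE transcript it made up 80.4% ± 0.358 of class A plexin RNA in the HCT116 control and 80.3% ± 1.82 in the HCT116 oxpl-R control (SD, n = 3), so that its share differed by less than the replicate spread. Under oxaliplatin its share was 59.9% ± 2.11 in HCT116 cells and 79.9% ± 1.37 in the resistant line. In the controls PLXNA3 made up 19.3% and 18.9%, PLXNA2 0.327% and 0.725%. PLXNA4, the remaining gene of the class, had 0 counts in all 3 HCT116 control samples and 2, 4 and 6 in the HCT116 oxpl-R control, and at most 8 in any sample, too few for a fold.

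In normalised counts, PLXNA1 (chr3:126982693-127037389, plus strand) was at 3820, 3972 and 4318 in the HCT116 control and at 5708, 5866 and 6536 in the HCT116 oxpl-R control. The difference was 1.5-fold, with a log2 fold change of 0.59 ± 0.10 (adjusted p = 0.00186). This was within the middle range of chromosome 3, whose 636 genes had quartiles of 0.06 and 0.87. Under oxaliplatin the HCT116 samples fell to 1595, 1790 and 2188, whereas HCT116 oxpl-R samples were at 5287, 6681 and 7848. With E1A the values were 4262, 4564 and 4601 in HCT116 and 4231, 5169 and 6559 in HCT116 oxpl-R cells, and with both 1613, 1680 and 2612 against 5207, 5405 and 5586. The lines overlapped only with E1A alone.

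PLXNA2, a plexin that can also act with transmembrane semaphorins, was scarce. It lies at chr1:208022242-208244384 on the minus strand. HCT116 control samples held 15.7, 21.5 and 24.0 normalised counts and HCT116 oxpl-R control samples 48.5, 65.3 and 86.9, a 3.27-fold difference (log2 fold change 1.70 ± 0.33, adjusted p = 0.00338), and edgeR gave 2.33 from the length-scaled table. With E1A, HCT116 samples reached 78.7, 90.8 and 115, overlapping with the HCT116 oxpl-R samples with E1A (85.2, 124 and 147). Under oxaliplatin the HCT116 samples held 18.0, 24.1 and 34.2 and the HCT116 oxpl-R samples 48.1, 67.8 and 98.3. With both agents they held 34.5, 53.0 and 55.3 against 93.8, 96.6 and 119.

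PLXNA3 (chrX:154458281-154477779, plus strand), which binds SEMA3F together with NRP2, varied least of the 8 genes. Its group means ran from 1134 ± 52.3 in the HCT116 control to 1861 ± 216 in HCT116 oxpl-R cells under oxaliplatin (SD, n = 3). In untreated cells it was 1.47-fold higher in the resistant line (log2 fold change 0.56 ± 0.11, adjusted p = 0.00308). The length-scaled table gave 0.19 to 0.21 for it and no call. The 327 genes of chromosome X had an upper quartile of 0.57.

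All 3 semaphorins were lower in the resistant line. SEMA3F (chr3:50155045-50189075, plus strand), the ligand of NRP2, was at 1032, 1061 and 1221 normalised counts in the HCT116 control and at 410, 444 and 479 in the HCT116 oxpl-R control. It was 2.49-fold lower (log2 fold change -1.31 ± 0.12, adjusted p = 3.76e-05). In treated HCT116 cells it held 1415, 1523 and 1880 under oxaliplatin, 1228, 1366 and 1373 with E1A, and 1360, 1395 and 1931 with both. The corresponding HCT116 oxpl-R values were 723, 815 and 880, then 440, 549 and 745, and 730, 896 and 1021. No sample of the resistant line reached the lowest HCT116 sample of any treatment.

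SEMA3A and SEMA3C both lie on the minus strand of chromosome 7, at chr7:83955777-84492724 and chr7:80742538-80922359, with SEMA3E between them. SEMA3A, the ligand of NRP1 and a repellent of growing axons, was at 410, 593 and 696 in the HCT116 control and at 86.8, 89.2 and 238 in the HCT116 oxpl-R control, 4.10-fold lower (log2 fold change -2.03 ± 0.35, adjusted p = 0.00158). SEMA3C, which binds both neuropilins and promotes migration in several tumours, was at 504, 634 and 659 against 73.7, 96.2 and 216, 4.65-fold lower (-2.21 ± 0.31, adjusted p = 0.000493). In both genes the highest HCT116 oxpl-R value came from replicate 3, and without it the log2 fold changes were -2.66 and -2.80. From the length-scaled table that of SEMA3A was -2.72 to -2.87.

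The same sample number stood apart in the other groups of the resistant line. Replicate 3 had the highest SEMA3A and the highest SEMA3C of all 4 HCT116 oxpl-R groups. Its SEMA3A was 1.66 to 4.53 times the mean of replicates 1 and 2, and its SEMA3C 1.66 to 3.13 times. Under oxaliplatin SEMA3A was at 71.2, 64.5 and 307 in replicates 1 to 3 and SEMA3C at 145, 150 and 461. With E1A they were at 156, 84.1 and 281 and at 122, 85.2 and 296, and with both at 81.5, 89.0 and 142 and at 184, 138 and 267. SEMA3D, which lies 0.503 Mb from SEMA3A, was likewise highest in replicate 3 of all 4 groups, at 1.72 to 3.78 times the other samples, while NRP1 and NRP2 were highest in replicate 3 of none. Of the 8 epithelial markers, EPCAM, CDH1 and KRT8 were lowest in replicate 3 of all 4 groups (EPCAM at 0.61 to 0.72 times the other samples), whereas KRT18 was highest there in 3 groups. Their part was not tested. Among HCT116 samples, oxaliplatin replicate 3 was high in both genes, with SEMA3A at 157, 226 and 522 and SEMA3C at 444, 588 and 1164. HCT116 cells with E1A held 348, 340 and 400 of SEMA3A and 470, 513 and 494 of SEMA3C, and with both agents 313, 289 and 238 and 556, 646 and 850.

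Of 31 genes averaging at least 10 counts from 5 Mb before SEMA3C to 5 Mb after SEMA3D, 6 were lower in the untreated resistant line and 2 higher. SEMA3A and SEMA3C, which were used to place this window, were among the 6. Of all 11096 genes with such counts, 2279 were lower and 2193 higher. Among all 16715 genes tested, scarcer ones included, the shares were 13.9% lower and 13.8% higher. The median log2 fold change of the 31 genes was -0.17, and the 538 such genes of chromosome 7 had a median of 0.10. SEMA3E and SEMA3D, within the same 4.44 Mb as SEMA3A and SEMA3C, were not called (adjusted p = 0.224 and 0.88). On the other side of SEMA3C the nearest measured genes, CD36 and GNAI1, were both lower, with log2 fold changes of -4.76 ± 0.52 and -1.84 ± 0.11 (adjusted p = 2.71e-05 and 2.50e-06). They were named for their place after their values were seen.

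The class 3 semaphorins as a whole changed in make-up. SEMA3B begins 78.5 kb from the end of SEMA3F on chromosome 3 and went the other way: it was at 357, 362 and 436 normalised counts in the HCT116 control and at 2217, 2271 and 2330 in the HCT116 oxpl-R control (log2 fold change 2.57 ± 0.13, adjusted p = 5.46e-07). Per kb, the 7 class 3 semaphorins summed to 677 ± 17.0 in the HCT116 control and 968 ± 26.2 in the HCT116 oxpl-R control. SEMA3F was 45.3% ± 5.38 of this sum in the former and 12.7% ± 0.687 in the latter, SEMA3C 18.1% and 2.70%, and SEMA3A 10.3% and 1.74%. SEMA3B, a ligand counted as a tumour suppressor in lung, was 17.8% ± 1.90 and 73.8% ± 3.70 (SD, n = 3). Under oxaliplatin the sum was 1044 ± 144 in HCT116 cells, with SEMA3F at 42.6% and SEMA3B at 31.3%, and 2215 ± 468 in HCT116 oxpl-R cells, with 10.2% and 78.5%.

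**Figure D1:**
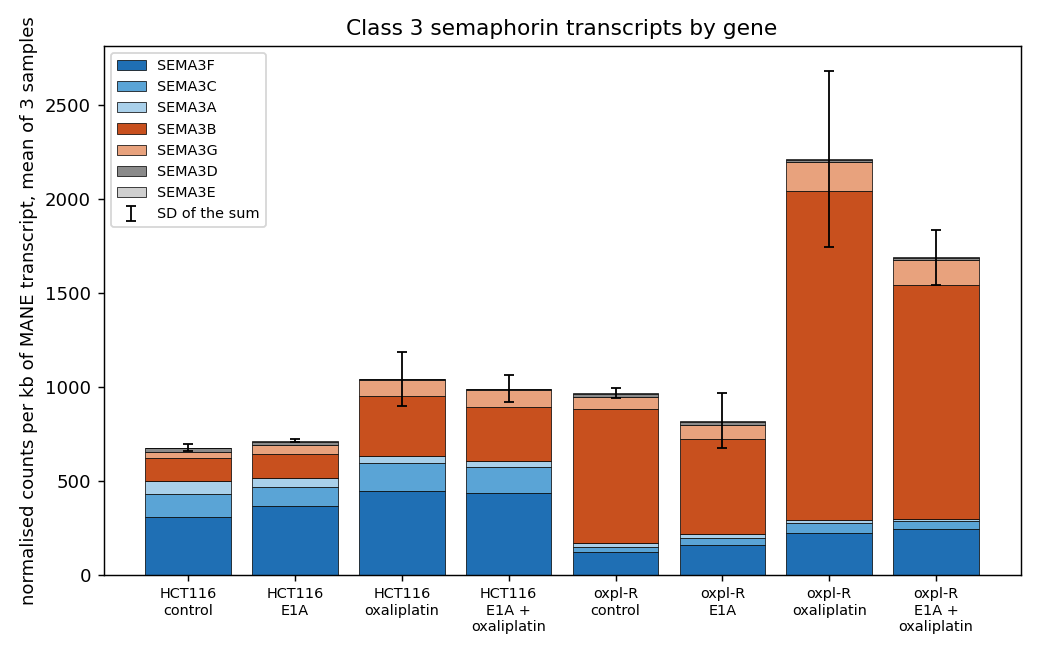
Stacked bars of the 7 class 3 semaphorins in normalised counts per kb of MANE transcript (vertical axis from 0, mean of 3 samples) for the 8 groups; the black bars are the SD of the sum. SEMA3F, in dark blue, is the largest part of every HCT116 bar and SEMA3B, in dark orange, of every HCT116 oxpl-R bar.

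The difference between the lines was also examined within each treatment. Under oxaliplatin, 6 of the 8 genes were called, 4 higher and 2 lower in the resistant line, where 9.65% of all genes tested were higher and 10.9% lower. NRP1 (log2 fold change 2.62 ± 0.35), NRP2 (4.07 ± 0.24), PLXNA1 (1.74 ± 0.23) and PLXNA2 (1.39 ± 0.42) were higher, and SEMA3C (-1.61 ± 0.51) and SEMA3F (-1.08 ± 0.22) lower. PLXNA1 was thus 3.56-fold apart between the lines, with an adjusted p of 0.00078. Same-numbered samples deviated together in this comparison, and with the replicate number as a block PLXNA2 was no longer called (adjusted p = 0.0503), while SEMA3A was (-1.30, adjusted p = 0.0164, against -1.11 and 0.255 without it). PLXNA2 was also lost without replicate 1 or 2 of either line (adjusted p = 0.0826 to 0.128). SEMA3C was lost without HCT116 oxaliplatin replicate 2 or 3 or HCT116 oxpl-R oxaliplatin replicate 1 or 2 (0.0646 to 0.20) and with genes kept by filterByExpr (0.0544), and SEMA3A was called without HCT116 oxpl-R oxaliplatin replicate 3 (-2.19, adjusted p = 0.0384).

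With E1A, 4 of the 8 genes were called, with 10.3% of all genes higher and 7.05% lower. NRP1 (2.27 ± 0.22) and NRP2 (2.94 ± 0.18) were higher, and SEMA3C (-1.41 ± 0.39) and SEMA3F (-1.08 ± 0.19) lower in the resistant line. SEMA3C was no longer called without any 1 of the HCT116 E1A samples or without HCT116 oxpl-R E1A replicate 1 (adjusted p = 0.061 to 0.128). SEMA3A, at -0.93 and not called (adjusted p = 0.113), was called in 6 of the 15 alternative fits. The smallest adjusted p of these was 0.00204, without HCT116 oxpl-R E1A replicate 3 (-1.51). With E1A + oxaliplatin, 7 of the 8 were called, 4 higher and 3 lower, with 9.55% of all genes higher and 8.21% lower. The log2 fold changes were 2.18 ± 0.32 for NRP1, 3.20 ± 0.24 for NRP2, 1.46 ± 0.22 for PLXNA1 and 1.12 ± 0.30 for PLXNA2. They were -1.42 ± 0.28 for SEMA3A, -1.80 ± 0.28 for SEMA3C and -0.82 ± 0.22 for SEMA3F. PLXNA2 and SEMA3F were lost in 4 and in 3 of the 6 fits that left out 1 sample, namely without either line's replicate 2 and, for PLXNA2, without HCT116 replicate 3 or HCT116 oxpl-R replicate 1 (0.0709 to 0.102), and for SEMA3F without HCT116 oxpl-R replicate 1 (0.0616 to 0.134). NRP1, NRP2, SEMA3C and SEMA3F were called in the same direction in all 4 comparisons of the lines. In the length-scaled table NRP1 and PLXNA2 were not called under oxaliplatin (adjusted p = 0.0537 to 0.0712 and 0.349 to 0.358), nor SEMA3A with E1A + oxaliplatin (0.10 to 0.132). Without replicate 3 of every group, SEMA3F was not called with E1A (0.054) or with E1A + oxaliplatin (0.0512), nor PLXNA2 with E1A + oxaliplatin (0.118). Of the calls that stood, the length-scaled table moved NRP2 under oxaliplatin to 3.17 to 3.18, NRP1 with E1A to 1.24 to 1.26 and PLXNA2 with E1A + oxaliplatin to 1.75 to 1.89. SEMA3C was at -2.35 without HCT116 oxpl-R oxaliplatin replicate 3 and at -2.16 without HCT116 oxpl-R E1A replicate 3.

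**Figure D2:**
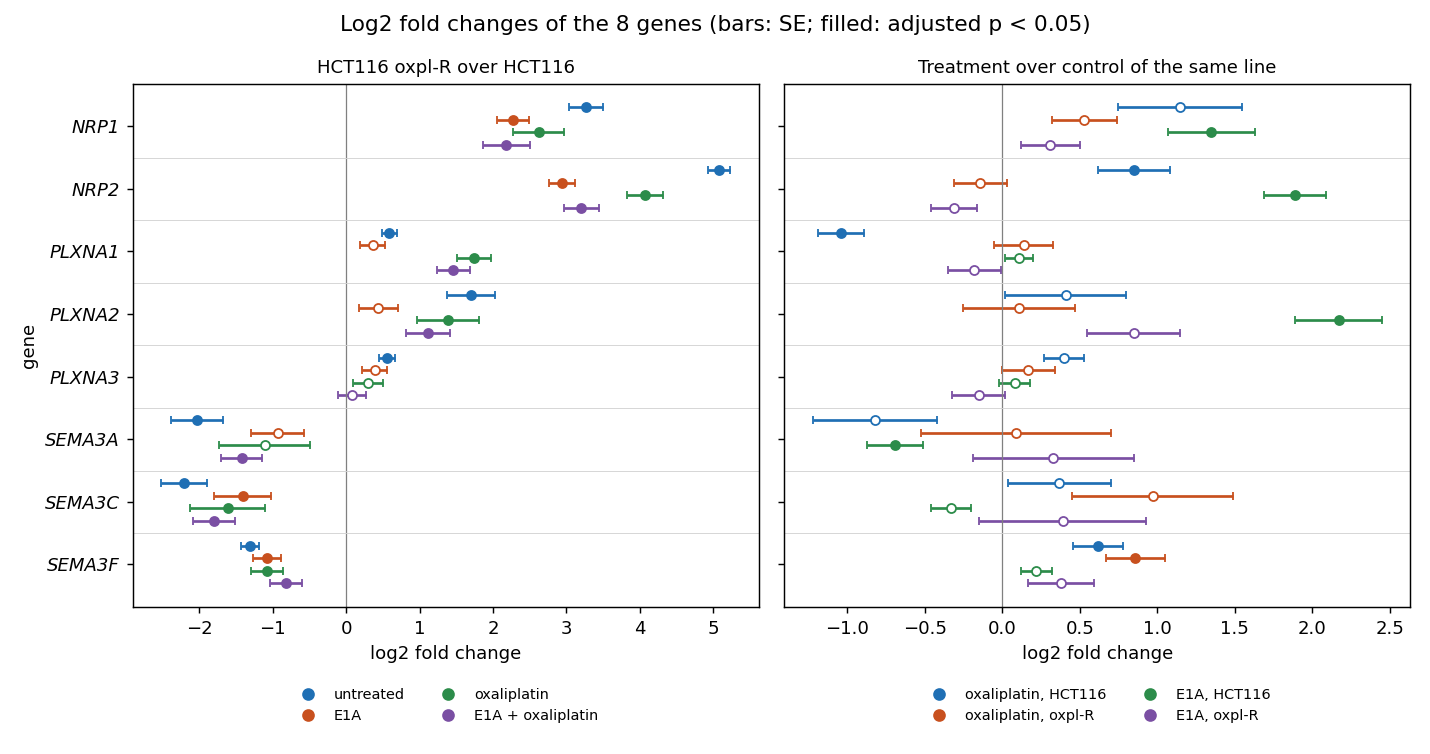
Log2 fold changes of the 8 genes (horizontal axes, bars are SE), for HCT116 oxpl-R over HCT116 within each treatment on the left and for oxaliplatin or E1A over the control of the same line on the right. Filled points have an adjusted p below 0.05. On the left NRP1 and NRP2 lie above 2 in every treatment, and on the right the filled points are 3 for oxaliplatin and 4 for E1A in HCT116 cells and 1 for oxaliplatin in HCT116 oxpl-R cells.

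The next comparisons set each treatment against the control of the same line. They share these controls with each other and with the comparison of untreated lines. In HCT116 cells oxaliplatin changed 3 of the 8 genes, 2 up and 1 down, where 13.4% of all genes rose and 10.1% fell. PLXNA1 fell 2.17-fold (log2 fold change -1.04 ± 0.15, adjusted p = 0.00292), in all 3 samples below the lowest control, as did 21.5% of all genes tested. NRP2 rose 1.70-fold (0.85 ± 0.23, adjusted p = 0.0285) and SEMA3F 1.45-fold (0.62 ± 0.16, adjusted p = 0.0237). PLXNA1 alone was called in each fit without 1 sample. NRP2 was lost without any 1 of the HCT116 control samples or oxaliplatin replicate 1 or 2 (0.0516 to 0.116), and SEMA3F without control replicate 1 or 2 or oxaliplatin replicate 1 (0.0624 to 0.124). Only 1 gene was called without control replicate 1 or without control replicate 2. Without oxaliplatin replicate 3, whose SEMA3A and SEMA3C stood apart, 5 were called, with SEMA3A at -1.53 (adjusted p = 0.00114, against -0.82 and 0.186 with it) and PLXNA3 at 0.29 (0.0359). NRP1 was at 1.15 ± 0.40 (adjusted p = 0.0722) and was called without oxaliplatin replicate 1 (0.0378).

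In HCT116 oxpl-R cells oxaliplatin changed 1 of the 8 genes, where 1.81% of all genes rose and 1.79% fell. SEMA3F rose 1.81-fold, from 444 ± 34.7 to 806 ± 79.1 (SD, n = 3). Its log2 fold change was 0.86 ± 0.19 (adjusted p = 0.0345). The call was lost without any 1 of the HCT116 oxpl-R control samples or without oxaliplatin replicate 2 (0.0839 to 0.186), which left 0 genes called. NRP1 was at 215, 225 and 253 in the control and, without overlap, at 287, 346 and 362 under oxaliplatin, but missed the threshold (adjusted p = 0.226), and 10.8% of all genes lay entirely above the controls. NRP2, at 1724 ± 172 in the control and 1559 ± 141 under oxaliplatin, and PLXNA1, at 6037 ± 440 and 6605 ± 1282, were not called. SEMA3C was at 0.97 ± 0.52 and not called (adjusted p = 0.415), but was called with the replicate number as a block (0.92, adjusted p = 0.0321).

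With E1A, and thus with doxycycline, 4 of the 8 genes changed in HCT116 cells, 3 up and 1 down, where 2.47% of all genes rose and 4.63% fell. PLXNA2 rose 4.64-fold (log2 fold change 2.17 ± 0.28, adjusted p = 0.000996) and NRP2 3.83-fold (1.89 ± 0.20, adjusted p = 0.000224). NRP1 rose 2.64-fold (1.35 ± 0.28, adjusted p = 0.0173), and SEMA3A fell 1.56-fold (-0.69 ± 0.18, adjusted p = 0.0372). Of the 11091 genes averaging at least 10 counts, 78 had a larger log2 fold change than NRP2. These 4 genes, PLXNA3 and SEMA3F had no overlap between E1A and control samples, 5 genes above and 1 below, where 12.3% of all genes lay above and 10.1% below. NRP2 and PLXNA2 were called in each fit without 1 sample. NRP1 was lost without control replicate 1 or 2 or E1A replicate 1 or 2 (0.0722 to 0.12), and SEMA3A without those or E1A replicate 3 (0.0655 to 0.246). The former 4 fits called 2 genes each. In the length-scaled table NRP2 was at 1.21 to 1.22 and not called by limma (0.0742 to 0.0857), and at 1.16 and called by edgeR (0.0169). Without control replicate 3, SEMA3C was called as well (-0.46, adjusted p = 0.0286).

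In HCT116 oxpl-R cells the edgeR test called none of the 8 genes with E1A, and 1 (PLXNA2) had an unadjusted p below 0.05. DESeq2 also called 0. Of all genes, 0.0523% were called, the transgene first, at a log2 fold change of 6.52. PLXNA2 was at 48.5, 65.3 and 86.9 in the control and at 85.2, 124 and 147 with E1A. NRP2 was at 1724 ± 172 in the control and 1395 ± 171 with E1A (SD, n = 3). Its samples with E1A (1200, 1462 and 1523) lay entirely below those of the control (1567, 1697 and 1907), as 4.65% of all genes did.

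Adding E1A to oxaliplatin gave no call among the 8 genes in either line by edgeR or DESeq2. In HCT116 cells 0.0246% of all genes were called and 1 of the 8, NRP2, had an unadjusted p below 0.05. In HCT116 oxpl-R cells 0.292% were called and 0 of the 8 had such a p. The log2 fold changes of the 8 genes lay between -0.12 and 0.88 in the former and between -0.53 and 0.53 in the latter. NRP2 of HCT116 cells was nevertheless at 76.6, 91.3 and 93.3 under oxaliplatin and, without overlap, at 125, 143 and 149 with both agents, and PLXNA2 likewise did not overlap. Of all genes 3.27% lay entirely higher in this comparison.

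Whether the lines responded differently was tested by the interaction of line and treatment. For oxaliplatin 1 of the 8 genes was called, with 2.48% of all genes. It was PLXNA1, whose log2 response was higher by 1.2 ± 0.25 in the resistant line (adjusted p = 0.0217). The call was lost without any 1 of the 6 control samples of either line or without HCT116 oxaliplatin replicate 1 (0.0518 to 0.0791). NRP2 was just above the threshold (-0.97 ± 0.24, adjusted p = 0.0511) and was called without HCT116 oxaliplatin replicate 3 (0.0357) or HCT116 oxpl-R oxaliplatin replicate 1 (0.0268). For E1A the response of NRP2 was lower by 2.22 ± 0.25 in the resistant line (adjusted p = 0.000983), and it was 1 of 2 genes called (0.011% of all genes). It remained called in all 12 fits without 1 sample. The other gene was NSUN5P1, a pseudogene. In the length-scaled table the difference of NRP2 was -1.33 to -1.40 and not called (adjusted p = 0.712 to 0.877), and without the third sample of every group it was -2.25 (0.0899). The responses of NRP1 and PLXNA2 to E1A, at -1.07 ± 0.34 and -1.34 ± 0.43, had an adjusted p of 1.0.

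The table used bears on the scarce genes. The length-scaled value was 2.98 times the count for NRP1 in HCT116 control replicate 1 (90.4 against 30.4 normalised) and 3.68 times in HCT116 oxaliplatin replicate 2. For PLXNA2 it was 6.01 times in HCT116 oxaliplatin replicate 2 and 4.27 times in HCT116 oxpl-R E1A replicate 2. For NRP2 the ratio stayed between 0.76 and 2.04, and for PLXNA1, SEMA3C and SEMA3F between 0.85 and 1.2.

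Other genes of the system were read from fixed lists. Of 6 other plexins, 3 were higher and 0 lower in the untreated resistant line. Of 4 other class 3 semaphorins 2 were higher and 0 lower. Of 13 semaphorins of classes 4 to 7, 1 was higher and 6 lower, with SEMA6A up (1.25 ± 0.12) and SEMA7A down (-1.11 ± 0.12). Of 8 co-receptors and growth factor genes only L1CAM, an adhesion molecule that binds NRP1, was higher, from 400 to 1779 normalised counts (2.16 ± 0.14, adjusted p = 3.89e-06). Over all genes 13.8% were higher and 13.9% lower. Of 25 intracellular partners 7 were higher and 7 lower, among the latter FARP2 (-1.22 ± 0.16), DPYSL4 (-1.19 ± 0.17) and DPYSL5 (-1.19 ± 0.13), which encode an exchange factor bound by plexins and 2 collapsin response mediator proteins. The median log2 fold change of the 8 genes described above was 0.58, of the other plexins 0.49, of the classes 4 to 7 -0.09, of the partners 0.06 and of all 16715 genes tested 0.08. SEMA4A (-3.75 ± 0.86) rested on few counts, with means of 11.3 in HCT116 and 0.688 in HCT116 oxpl-R controls.

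Under oxaliplatin, SEMA3B and SEMA3G rose in both lines, by 1.48 ± 0.16 and 1.30 ± 0.18 in HCT116 and by 1.30 ± 0.21 and 1.23 ± 0.21 in HCT116 oxpl-R cells. PLXNB3, a receptor of another semaphorin class, also rose in both (1.73 ± 0.22 and 2.30 ± 0.24), as did the placental growth factor PGF (1.92 ± 0.16 and 1.27 ± 0.23) and RHOD, a small GTPase of plexin signalling (1.72 ± 0.15 and 1.62 ± 0.23). PLXNB2 rose in both as well, by 1.08 ± 0.12 and 0.94 ± 0.21. L1CAM rose in HCT116 cells (1.12 ± 0.22) and was at means of 1779 and 2637 normalised counts without and with oxaliplatin in the resistant line, which was not called (adjusted p = 0.168). The difference of its oxaliplatin response between the lines was not called either (interaction term, adjusted p = 0.414). FES rose in HCT116 cells (1.45 ± 0.18), and its response was lower in the resistant line by the interaction term (-1.37 ± 0.27, adjusted p = 0.0152). SEMA3D fell in HCT116 cells (-1.66 ± 0.51). With E1A, 0 of the other plexins and 0 of the other class 3 semaphorins were called in either line by edgeR. At an unadjusted p below 0.05 there were 0 plexins in either line, and 2 such semaphorins in HCT116 and 1 in HCT116 oxpl-R cells. Among the co-receptors and growth factor genes 1 of 7 rose in HCT116 cells, and 2 of the 25 intracellular partners did, beside 2.47% of all genes.

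Over the 24 samples, the genes most like NRP2 in log2(CPM + 1) were NEDD9, ANO1 and GLIS3 (Pearson r = 0.983, 0.981 and 0.979), among 11097 genes. Those most like NRP1 were CCDC69, SATB1 and NRP2 itself (0.971, 0.970 and 0.967). The points share the split between the lines, so any gene that differs strongly between them takes a high r. Among the 8 genes, SEMA3A and SEMA3C had r = 0.84 and PLXNA1 and PLXNA3 r = 0.51.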

How the data were processed

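RNA was sequenced in 24 samples of HCT116 and HCT116 oxpl-R cells, 3 for each of 8 groups taken from the labels. The authors trimmed the reads with Trimmomatic, quantified them with Salmon 1.6.0 on GENCODE release 47 transcripts of GRCh38 correcting for sequence-specific and GC-content effects, and tximport gave the sums of each gene. They deposited estimated counts per gene without normalization, of which 15.9% to 30.4% per sample were not whole, and all were rounded here. The count table is used up to SETP6 (33113 genes, with 24838095 to 37927720 counts per sample), and later genes, such as those of the vascular endothelial growth factors, were not analysed here. A second deposited table (37967 genes) is named TPM, but each column sums to far more than TPM can, so it was read as length-scaled estimated counts, a unit other than the one planned for.

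Each test was run with edgeR 4.0.16 in R 4.3.3 (TMM normalization, quasi-likelihood test) on only the samples compared, and genes without any count in them were dropped. Calls are at a Benjamini-Hochberg adjusted p below 0.05 over all genes tested, with no fold threshold, and the tests of the difference in response between lines used the interaction term over 4 groups. The SE of a log2 fold change is its size divided by the square root of the F statistic. Normalised counts are counts divided by the TMM library size relative to its mean over 24 samples. Levels per kb use the MANE transcript of GENCODE release 44, which also gave the positions. The count table pairs reads with genes by symbol only, and how the reads were assigned between overlapping genes is not given in the sources used here. The members, the gene lists and the tests were chosen with earlier results of these data known. The text names the 8 members, listed genes with an adjusted p below 0.05 and a log2 fold change beyond 1 in the untreated, oxaliplatin or E1A comparisons (at most 5 per list), and the 3 genes most like NRP1 and NRP2. The exceptions are marked. Same-numbered samples were taken to deviate together from their group means where the correlation across genes was above 0.1 for each replicate number. This held in 1 comparison, of the lines under oxaliplatin (0.141, 0.188 and 0.253), in which the pairing comes from the data and not from the labels. In HCT116 oxpl-R cells replicates 2 and 3, but not replicate 1, exceeded 0.1 as well. Replicates 1 to 3 were at 0.084, 0.465 and 0.547 for oxaliplatin and the control, and at 0.028, 0.508 and 0.678 for E1A and the control. Alternatives were RLE normalization, DESeq2 1.42.0, genes kept by filterByExpr, a joint fit of the 24 samples, a block for the replicate number, the omission of single samples, and limma 3.58.1 on log2(value + 1) or log2(value + 0.1) of the length-scaled table. Chosen after seeing the data were edgeR on that table and a fit without replicate 3 of every group. The fits were tested on simulated data. Tables and plots were made in Python 3.11.15 with pandas 2.3.3, numpy 2.4.6 and matplotlib 3.10.9.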

Additional observations from a re-analysis of the deposited data

Results flagged for a closer look

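In PLXNA1 the response to oxaliplatin differed between the lines. The log2 response was higher by 1.2 ± 0.25 in HCT116 oxpl-R cells (edgeR, interaction term, adjusted p = 0.0217), with a mean fall from 4037 to 1858 normalised counts in HCT116 cells and means of 6037 and 6605 in HCT116 oxpl-R cells. In NRP2 the response to E1A differed, by -2.22 ± 0.25 (adjusted p = 0.000983), with a rise from 51.1 to 196 in HCT116 cells and means of 1724 and 1395 in HCT116 oxpl-R cells. With 3 samples a group, single values were not tested for standing apart, and the libraries that stood apart as a whole are named above.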

How the results depend on the processing

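None of the 35 called results for single genes changed direction under any alternative tried. In 446 of their refits the call stood, and in 91, of 18 results, it was lost. Of the results not called, 27 changed direction at least once, most often where E1A was added to oxaliplatin, and those log2 fold changes are given above only as ranges. SEMA3A changed direction in the difference of the oxaliplatin response, to -0.19 without HCT116 oxpl-R oxaliplatin replicate 3, and ranged up to 1.6 without HCT116 oxaliplatin replicate 3. For oxaliplatin in HCT116 cells (3 genes called), DESeq2 and the fit without replicate 3 of every group called 5, and the 3 fits of length-scaled values called 1. For E1A in HCT116 cells (4), all 24 samples in one fit called 2 and limma on length-scaled values called 1. For the difference of the oxaliplatin response (1), RLE, DESeq2 and filterByExpr called 2 and the fit without replicate 3 of every group 3. For that of the E1A response (1), the length-scaled fits and the fit without replicate 3 of every group called 0, and without these samples oxaliplatin in HCT116 oxpl-R cells (1) called 0. With 1 sample left out the counts ranged from 1 to 5 for oxaliplatin and from 2 to 5 for E1A in HCT116 cells, from 0 to 1 for oxaliplatin in HCT116 oxpl-R cells and from 0 to 2 for the difference of the oxaliplatin response. Between the lines they were 8 in untreated cells, 4 to 7 under oxaliplatin, 3 to 5 with E1A and 5 to 7 with both. With the replicate number as a block, 1 gene was called for oxaliplatin and 1 for E1A in HCT116 cells. For oxaliplatin in HCT116 oxpl-R cells 2 were called, SEMA3C and SEMA3F. By the labels the samples of these comparisons share only a number. Their correlations ran from -0.266 to -0.119 in HCT116 cells, and were 0.084, 0.465 and 0.547 in replicates 1 to 3 of HCT116 oxpl-R cells. The cause of these changes was not tested, beyond the smaller number of samples where some were left out.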
